A study of Mus musculus with 2 samples.

Results

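DNase I hypersensitive sites (DHSs) at the promoters of long non-coding RNA (lncRNA) genes numbered 739 of the 26012 DHSs that both libraries of newborn mouse cortex shared. A DHS is a stretch of chromatin that the enzyme DNase I cuts more than its surroundings. Calls of the stricter deposited list of each library were joined where they overlapped, and a joined site was shared where it held a call of both libraries. It counted as a lncRNA-promoter DHS where its centre lay within 1 kb of a transcription start site (TSS) of a lincRNA, antisense, processed_transcript or bidirectional_promoter_lncRNA gene of GENCODE M21 and more than 1 kb from every protein-coding TSS. Of 2298 shared DHSs within 1 kb of a lncRNA TSS, 1559 also lay within 1 kb of a coding TSS and were left out. The count depends on the call lists: the lenient lists gave 1278 such DHSs, the strongest 20000 calls of each library 430, and the stricter calls of 1 library alone gave 1270 without replicate 1 and 1233 without replicate 2. The 739 DHSs had 637 nearest lncRNA genes, of which 88 were nearest to 2 or more of them. The other shared DHSs were 14290 within 1 kb of a coding TSS, called coding-promoter DHSs here, and 10983 elsewhere.

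The libraries, replicate 1 and replicate 2, were made from left cerebral cortex. The mice were females of the F1 hybrid strain B6CASTF1/J, aged 4 days, with no treatment in the labels. The labels give them different animal numbers and a single strain-level donor. Both belong to 1 group, so no condition was compared and no test between groups was possible; shares carry exact 95% binomial intervals and medians order-statistic intervals, which cover counting error only. Cortex tissue holds many cell types, and a DHS open in few cells cannot be told apart from one weakly open in many.

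Long non-coding RNAs are transcripts without a long reading frame that can act in the nucleus on chromatin and splicing, carry small RNAs in their introns or exons, or have no known function. Their promoters, like those of coding genes, become DHSs where transcription factors and the transcription machinery displace nucleosomes. Many lncRNA promoters lack the CpG islands common at coding genes, and many lncRNAs are made in few tissues; the developing cortex is known for a large repertoire of them.

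The sequences of 5 DHSs that later results turn on are given from the GRCm38 (mm10) genome, plus strand, 5′ to 3′. Malat1 encodes a nuclear-speckle RNA, Mir22hg and Snhg15 carry a microRNA and a small nucleolar RNA (snoRNA), Ftx belongs to the X-inactivation centre, and Nespas is an imprinted antisense RNA of the Gnas cluster. Capitals mark matches to the consensus sequences described further on, within the central 150 bp: NFY (CCAATCA) in Mir22hg and Nespas, CRE (TGACGTCA) in Snhg15 and NRF1 (CGCATGCGC) in Ftx. The Malat1 sequence held no match in that window.
Malat1, chr19:5803521-5803800: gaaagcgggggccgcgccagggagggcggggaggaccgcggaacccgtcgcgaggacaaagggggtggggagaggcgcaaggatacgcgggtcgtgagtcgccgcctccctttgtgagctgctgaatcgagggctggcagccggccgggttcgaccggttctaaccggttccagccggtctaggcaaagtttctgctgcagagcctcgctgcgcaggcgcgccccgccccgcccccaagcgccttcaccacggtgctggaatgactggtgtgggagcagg
Mir22hg, chr11:75461401-75461680: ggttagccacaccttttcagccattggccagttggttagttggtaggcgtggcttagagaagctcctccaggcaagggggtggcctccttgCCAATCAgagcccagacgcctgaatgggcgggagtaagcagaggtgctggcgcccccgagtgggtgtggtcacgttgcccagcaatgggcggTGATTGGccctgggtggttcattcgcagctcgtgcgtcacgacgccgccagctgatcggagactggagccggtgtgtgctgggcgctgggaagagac
Snhg15, chr11:6528741-6528980: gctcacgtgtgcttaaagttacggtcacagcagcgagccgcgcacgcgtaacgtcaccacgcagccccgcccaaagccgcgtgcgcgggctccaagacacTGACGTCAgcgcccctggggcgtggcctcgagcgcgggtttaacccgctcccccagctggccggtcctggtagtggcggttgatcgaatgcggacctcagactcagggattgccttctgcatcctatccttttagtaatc
Ftx, chrX:103622361-103622660: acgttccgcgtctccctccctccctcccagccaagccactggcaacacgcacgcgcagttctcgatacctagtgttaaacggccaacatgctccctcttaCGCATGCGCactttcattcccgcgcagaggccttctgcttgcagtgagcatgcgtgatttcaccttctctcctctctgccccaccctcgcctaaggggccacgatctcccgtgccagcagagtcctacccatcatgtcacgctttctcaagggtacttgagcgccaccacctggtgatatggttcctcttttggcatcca
Nespas, chr2:174295341-174295600: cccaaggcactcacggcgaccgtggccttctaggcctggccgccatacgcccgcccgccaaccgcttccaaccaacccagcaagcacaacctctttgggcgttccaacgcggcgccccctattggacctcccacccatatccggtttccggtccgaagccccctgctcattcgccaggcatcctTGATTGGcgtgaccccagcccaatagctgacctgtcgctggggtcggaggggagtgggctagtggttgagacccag

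A further 4 show the consensus sequences that set lncRNA-promoter DHSs beside the other classes. Capitals mark CTCF and the TATA box (TATAAA) in Snhg7os, CTCF in 2900072N19Rik, the NEUROD E-box (CAGATGG), RFX (GTTGCCATG) and NRF1 in Gm32834, and CRE in Gm44686. Each is the DHS of highest mean rank of signal, no wider than 300 bp, with the match it is shown for, and 2900072N19Rik the next with CTCF.
Snhg7os, chr2:26640221-26640420: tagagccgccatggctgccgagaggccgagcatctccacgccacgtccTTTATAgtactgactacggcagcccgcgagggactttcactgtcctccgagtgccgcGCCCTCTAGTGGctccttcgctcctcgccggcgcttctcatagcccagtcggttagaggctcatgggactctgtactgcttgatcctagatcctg
2900072N19Rik, chr2:92058521-92058740: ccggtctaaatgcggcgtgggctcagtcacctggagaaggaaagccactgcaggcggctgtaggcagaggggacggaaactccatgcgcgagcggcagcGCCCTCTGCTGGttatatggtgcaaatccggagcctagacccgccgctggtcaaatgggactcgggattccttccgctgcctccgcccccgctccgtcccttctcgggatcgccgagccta
Gm32834, chr13:51418641-51418840: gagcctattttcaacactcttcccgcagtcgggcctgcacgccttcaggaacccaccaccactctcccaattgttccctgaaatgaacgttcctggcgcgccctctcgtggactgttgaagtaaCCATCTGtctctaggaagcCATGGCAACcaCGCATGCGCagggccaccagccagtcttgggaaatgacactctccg
Gm44686, chr7:73537741-73538040: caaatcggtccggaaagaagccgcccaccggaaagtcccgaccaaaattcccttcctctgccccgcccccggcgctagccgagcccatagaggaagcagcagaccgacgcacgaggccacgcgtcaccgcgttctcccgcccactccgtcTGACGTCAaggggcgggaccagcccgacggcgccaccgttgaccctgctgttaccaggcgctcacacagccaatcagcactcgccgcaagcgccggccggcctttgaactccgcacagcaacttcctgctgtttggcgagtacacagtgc

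Shared DHSs lay at the promoters of 8 of 14 cortical neuron genes, among them Tbr1 and Fezf2. Those without were Neurod2, Neurod6, Bcl11b, Emx1, Emx2 and Slc17a7. Of all protein-coding genes 55.4% had a shared DHS at the promoter, so that 8 of 14 does not set the tissue label apart. They lay at 1 of 5 interneuron genes and 5 of 8 glial and progenitor genes, and at none of the 4 microglial, 3 endothelial or 7 other-tissue genes. The stricter lists held 59355 calls in replicate 1 and 46566 in replicate 2, and the median signal value was 0.556 and 1.45. The signal value is the authors' height of a call. Its scaling is not stated, so the libraries are given side by side; where a DHS is given with a pair of values, the first is that of replicate 1.

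Over all centres, lncRNA-promoter DHSs were weaker and narrower than coding-promoter DHSs and stronger and wider than the other shared DHSs. In replicate 1 the median signal value was 1.03 (interval 0.985 to 1.097) at lncRNA promoters, against 1.35 (1.34 to 1.37) at coding promoters and 0.953 (0.948 to 0.967) at the other shared DHSs. In replicate 2 it was 2.18 (2.03 to 2.36) at lncRNA promoters, against 3.39 (3.32 to 3.45) and 1.78 (1.76 to 1.80). With the lenient lists the lncRNA-promoter median of replicate 2 was 1.38. The order of the 3 classes was the same in both libraries, and the intervals did not overlap. Median widths were 301 bp (289 to 320), 400 bp (394 to 400) and 208 bp (202 to 215) in the same order of classes. At most lncRNA-promoter DHSs the signal value was higher in replicate 2, with a median ratio to replicate 1 of 2.08, against 2.47 at coding promoters and 1.84 elsewhere. Between the libraries, Pearson's correlation of log2 signal was 0.899 and Spearman's 0.901 across the 739 DHSs, a description over sites that share their libraries and base composition.

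**Figure D1:**
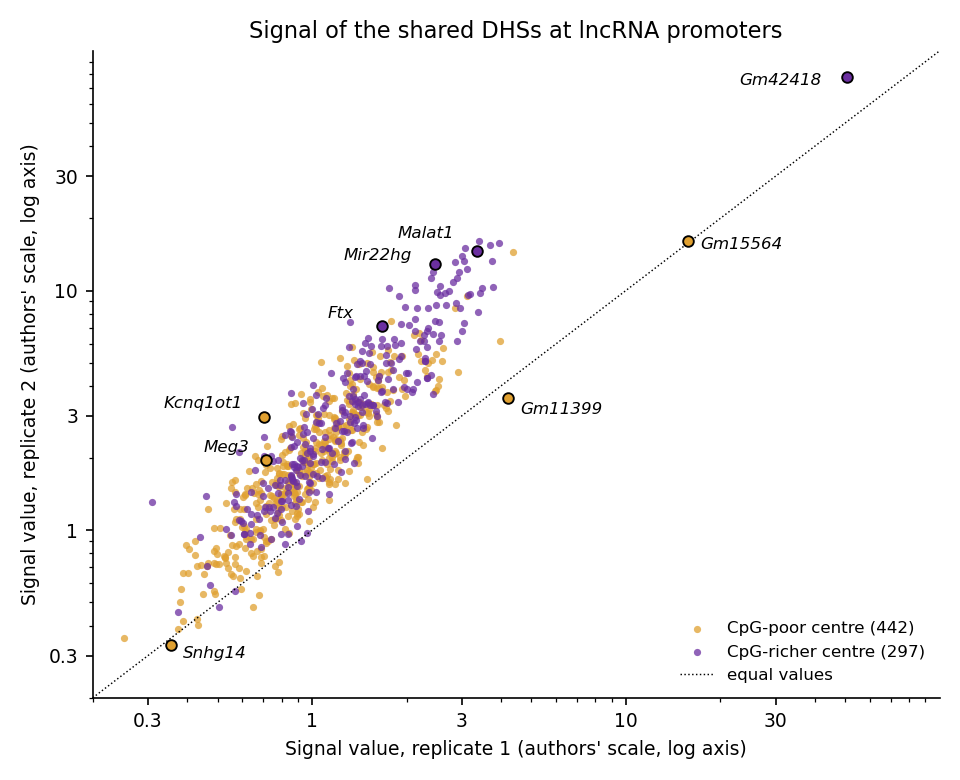
Signal values of the 739 lncRNA-promoter DHSs in replicate 1 (x axis) and replicate 2 (y axis), both on log axes in the authors' scale; each point is a DHS, coloured as CpG-poor or CpG-richer, and the dotted line marks equal values. Most points lie above the line, Gm42418 and Gm15564 stand apart at the upper right, and Gm15564 and Gm11399 lie at or below the line.

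LncRNA-promoter DHSs lay between the other classes in CpG content too. The observed-to-expected CpG ratio in 1 kb around the centre, which is low where methylation has worn CpG dinucleotides away over evolution, had a median of 0.518 at lncRNA-promoter DHSs, against 0.752 at coding promoters and 0.314 elsewhere. Under 0.6, called CpG-poor, lay 442 of the 739 centres (59.8%, 56.2 to 63.4), against 20.8% of coding-promoter and 86.9% of other shared DHSs. The CpG-poor lncRNA-promoter DHSs had a median signal of 0.964 in replicate 1, of 1.90 in replicate 2, and a median width of 245.5 bp. Their CpG-poor counterparts at coding promoters had 0.967 and 2.04, with intervals that overlapped those of the lncRNA promoters, and were wider at 338 bp. The CpG-poor among the other shared DHSs had 0.939 and 1.73, also with overlapping intervals, and were narrower at 200 bp. The 297 CpG-richer lncRNA-promoter DHSs had 1.27 (1.13 to 1.37) in replicate 1 and 3.02 (2.66 to 3.37) in replicate 2. CpG-richer coding promoters were higher, at 1.49 (1.47 to 1.504) and 3.95 (3.87 to 4.03). The CpG-richer among the other shared DHSs had 1.09 (1.06 to 1.135) in replicate 1, an interval that overlapped that of the lncRNA promoters. In replicate 2 they were lower, at 2.22 (2.11 to 2.35). Median widths at CpG-richer centres were 392 bp at lncRNA promoters, 414.5 bp at coding promoters and 380 bp elsewhere. The median ratio of replicate 2 to replicate 1 was 2.28 at the CpG-richer and 1.96 at the CpG-poor lncRNA-promoter DHSs.

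Counted by gene, 639 of 8243 lncRNA genes with a TSS over 1 kb from coding TSSs had such a DHS (7.75%, 7.18 to 8.35), against 12151 of 21938 protein-coding genes (55.4%, 54.7 to 56.0). The lncRNA share was 12.4% with the lenient lists, 4.74% with the strongest 20000 calls and 11.8% without replicate 1. Where a TSS of the gene was CpG-richer, 224 of 385 lncRNA genes had one (58.2%, 53.1 to 63.2), against 10017 of 11097 coding genes (90.3%, 89.7 to 90.8). Where none was, the shares were 5.28% of 7858 lncRNA genes and 19.7% of 10841 coding genes. The gap thus remained within both CpG classes, although CpG-richer lncRNA genes had a DHS more often than CpG-poor coding genes. Under a ratio of 0.2 the intervals of the gene classes overlapped, with 1.25% (0.912 to 1.68) of lncRNA genes and 0.898% (0.636 to 1.23) of coding genes. The rules of the classes differed: a DHS within 1 kb of a coding TSS did not count for lncRNA genes, while one near a lncRNA TSS still counted for coding genes. The number of TSSs per gene was not matched between the classes either. Among lncRNA genes a DHS was found at 6.73% of those with 1 eligible TSS, 12.2% with 2 and 29.6% with 3 or more. By annotated type the share was 19.7% (16.4 to 23.3) of processed_transcript genes, 6.99% of antisense and 6.88% of lincRNA genes.

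**Figure D2:**
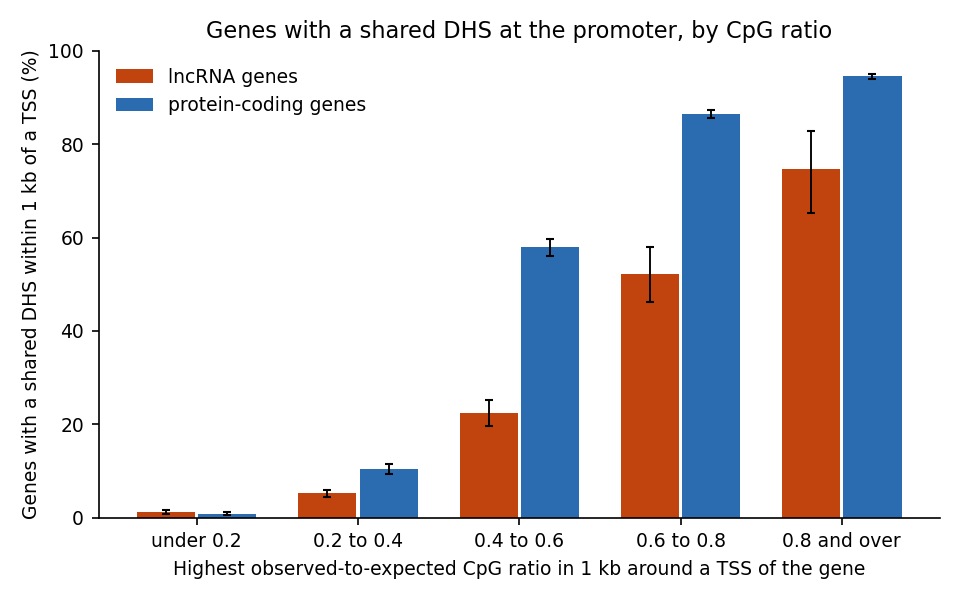
Percentage of lncRNA genes (left bars) and protein-coding genes (right bars) with a shared DHS within 1 kb of a TSS, by the highest CpG ratio around a TSS of the gene; error bars are exact 95% binomial intervals. In the top bin 74.8% of lncRNA genes had a DHS, against 94.5% of coding genes, and in the bin of 0.4 to 0.6 the shares were 22.3% and 57.9%.

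Distance to the start was limited by the rule at 1000 bp and is given as a description. The median distance from centre to TSS was 192 bp (166 to 220) at lncRNA promoters and 97 bp (95 to 99) at coding promoters. It moved with the window, to 119 bp with 0.5 kb and 501 bp with 2.5 kb, and was 296 bp for the calls of replicate 1 alone, without replicate 2. Within 100 bp lay 33.7% of lncRNA-promoter centres and 51.1% of coding-promoter centres. Upstream of the TSS lay 397 of the 739 lncRNA-promoter centres (53.7%), against 46.1% of coding-promoter centres. DHSs upstream of the lncRNA TSS had a median signal of 1.13 in replicate 1, against 0.978 for those at or downstream of it, and of 2.39 in replicate 2, against 1.94.

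The cut-rate calls list bases cut more often than a background model allows. They are shown around the TSSs nearest to lncRNA-promoter and coding-promoter DHSs. The rule places these DHSs within 1 kb of a TSS, so a peak near the start is built in and is given as a description. Around the 663 lncRNA TSSs nearest to these DHSs, bases with a false discovery rate under 0.001 were most frequent from 50 bp upstream to the TSS, at 58.9% in replicate 1 and 67.5% in replicate 2. Around the 12624 coding TSSs nearest to coding-promoter DHSs the highest shares were 86.9% and 93.2%. Footprints, short stretches protected from cutting inside a cut region as by a bound protein, covered at most 8.20% and 15.6% of bases around lncRNA TSSs, 50 to 100 bp upstream. Around coding TSSs they covered at most 13.9% and 25.5%. Over the 2 kb examined on each side, the lncRNA cut-rate profiles were lower at the TSS and higher farther out. In both libraries they were higher beyond 700 bp upstream and beyond 850 bp downstream. In the bin that starts 1000 bp upstream the shares were 11.7% against 7.08% in replicate 1.

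**Figure D3:**
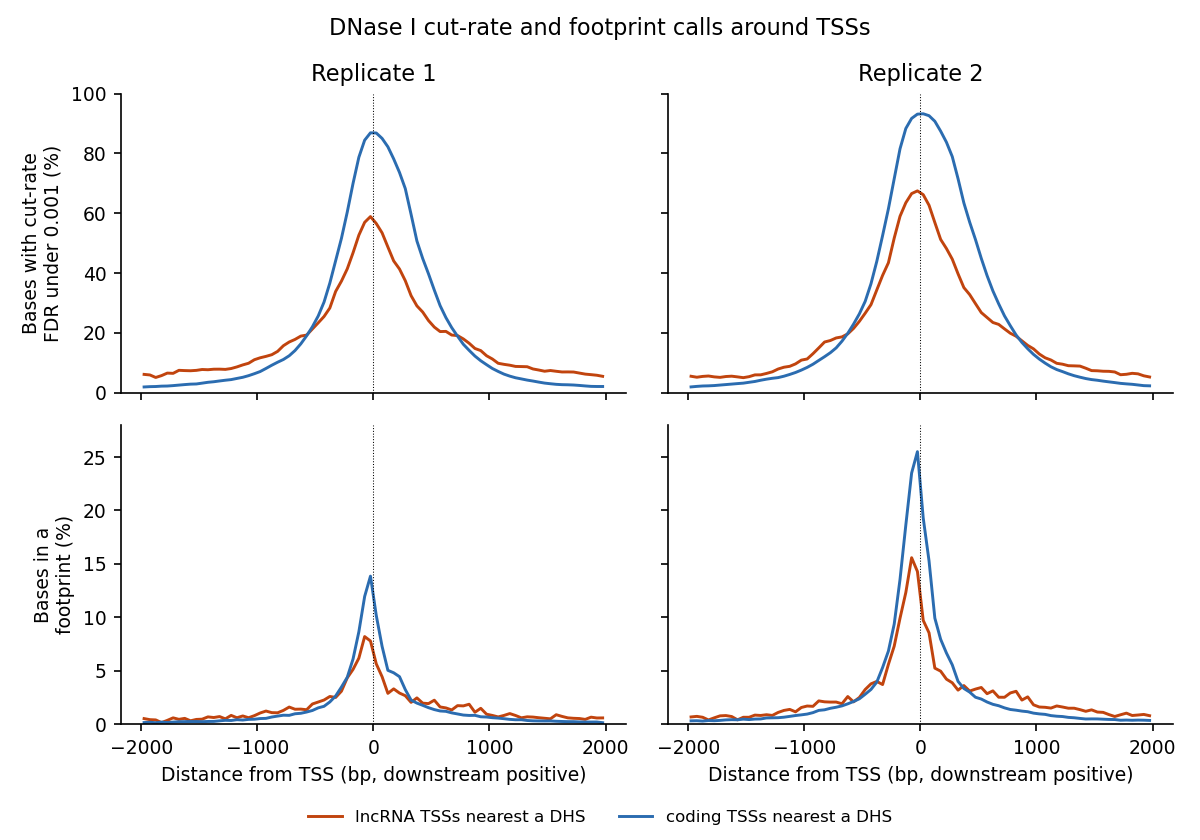
Percentage of bases with a cut-rate false discovery rate under 0.001 (upper panels) and in a footprint (lower panels) in bins of 50 bp around the lncRNA TSSs (663) and coding TSSs (12624) nearest to shared DHSs, for replicate 1 (left) and replicate 2 (right). All curves peak within 100 bp of the TSS, and the lncRNA curves peak lower in every panel.

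A footprint call of each library lay in 669 of the 739 lncRNA-promoter DHSs (90.5%, 88.2 to 92.5), against 89.5% of coding-promoter and 93.1% of other shared DHSs. Over the calls of replicate 1 alone, without replicate 2, the share was 57.0%. The median DHS held 3 footprints in replicate 1 and 4 in replicate 2, against 4 and 6 at coding promoters and 2 and 3 elsewhere, in the order of the widths. The most footprints were in the DHS of Gm43573, 11 and 22 in the widest of all at 1820 bp, and in that of Gm36445, 17 and 14. Of the 739, 15 had none in either library.

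The highest signal belonged to DHSs that stood apart from the rest. Gm42418, a lincRNA gene of chromosome 17, had 50.7 in replicate 1 and 77.9 in replicate 2 at chr17:39846781-39846900, where RefSeq lists Rn18s-rs5, a pseudogene related by name to 18S ribosomal RNA. Gm15564, an antisense gene inside Kpna1, had 15.8 and 16.1, a ratio of 1.02 where the median was 2.08. Gm11399, at a position that RefSeq gives to Sfi1, had 4.20 and 3.57, one of the lowest ratios at 0.849. How many copies these 3 sequences have in the genome was not examined, so their values are not read as the openness of a single site. Leaving Gm42418 and Gm15564 aside, replicate 1 values reached 4.36 and replicate 2 values 16.1. The sequence of Gm15564 follows, with an RFX match in capitals, and that of AC154766.4, with an AP-1 match (TGANTCA); RefSeq places a transfer RNA (tRNA) gene inside the AC154766.4 DHS.
Gm15564, chr16:35981661-35981840: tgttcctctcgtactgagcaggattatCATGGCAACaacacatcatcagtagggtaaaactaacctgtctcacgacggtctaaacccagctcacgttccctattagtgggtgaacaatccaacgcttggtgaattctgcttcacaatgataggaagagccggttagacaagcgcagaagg
AC154766.4, chr17:23550241-23550460: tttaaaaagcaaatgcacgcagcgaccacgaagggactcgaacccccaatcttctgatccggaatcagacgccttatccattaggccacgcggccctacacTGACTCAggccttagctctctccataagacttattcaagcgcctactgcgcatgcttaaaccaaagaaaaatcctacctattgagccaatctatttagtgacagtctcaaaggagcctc

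A tRNA gene of RefSeq overlapped 12 of the 739 lncRNA-promoter DHSs (1.62%, 0.842 to 2.82), against 0.175% of coding-promoter DHSs and 0.983% of the others. These genes are read by RNA polymerase III from promoters of their own. Over the 12 the median signal was 2.12 in replicate 1, with 4.14 in replicate 2. The highest was at Gm11205 with 3.76 and 10.4, followed by Gm11527 with 3.05 and 7.29 and B230208H11Rik with 2.90 and 6.13. At these sites the DHS cannot be assigned to the lncRNA rather than to the tRNA gene.

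Behind Gm42418 and Gm15564 came 1700028E10Rik with 3.95 and 15.8, Gm15408 with 4.36 and 14.5, Tmem250-ps with 3.70 and 15.4, Gm44686 with 3.41 and 16.1, and 2900052L18Rik with 3.75 and 13.3. Malat1, 6720427I07Rik and Gm17552 completed the 10 of highest mean rank. Of the 10, only Gm15564 and Gm15408 were CpG-poor, and 8 had a ratio of replicate 2 to replicate 1 above the median. RefSeq lists Tmem250-ps as protein-coding, so its place among lncRNA genes depends on the annotation. 6720427I07Rik carries Mirlet7a-1, Mirlet7d and Mirlet7f-1, microRNAs of the let-7 family known to rise as neural progenitors differentiate. The lowest mean ranks were those of Gm21989 with 0.252 and 0.354, Snhg14 with 0.355 and 0.331 and 5430431A17Rik with 0.374 and 0.386.

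By role, the share of listed genes with a lncRNA-promoter DHS is only roughly comparable with the 7.75% of all eligible lncRNA genes. The lists hold well-known genes and were not matched to the rest. They were also not limited to genes with a TSS over 1 kb from coding TSSs, as the 7.75% was. Of 6 annotated genes linked to X inactivation or X-chromosome organisation 4 had such a DHS. Ftx, which promotes Xist expression, had 1.67 in replicate 1 and 7.12 in replicate 2 at its stronger DHS, 11 bp upstream of a TSS, and 0.607 and 0.969 at its weaker one. Jpx, an activator of Xist, had 1.23 and 2.85, and Firre, an X-linked RNA that shapes nuclear organisation, 0.976 and 1.91. The stronger DHS of Ftx and that of Jpx lay above the medians of lncRNA-promoter DHSs in both libraries. That of Firre, the weaker one of Ftx and that of 4933407K13Rik, with 0.649 and 0.780, lay below, so that 2 of the 5 DHSs of the list were above. Xist, the RNA that coats the inactive X, had a call of the stricter list in replicate 2 alone, at 1.65, and in replicate 1 a call of the lenient list at 0.490. Tsix, its antisense, likewise had one in replicate 2 alone, at 0.685.

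Imprinted lncRNAs, made from 1 parental allele, were open at 4 of 11 annotated genes. Nespas had 1.83 and 5.35. Kcnq1ot1, the antisense RNA that silences genes of its domain on the paternal chromosome, had 0.700 and 2.98, and Meg3, expressed from the maternal chromosome, had 0.715 and 1.96. These 3 DHSs lay within 65 bp of a TSS and held an NFY match, against 4.47% of all lncRNA-promoter DHSs. Snhg14, the host of the imprinted snoRNA clusters of chromosome 7, had its DHS 108 bp upstream of an annotated TSS, with no match to any consensus. That TSS lies 298666 bp from the nearest coding TSS, that of Snurf, and a DHS at the Snurf TSS would fall outside the rule. By mean rank the Snhg14 DHS was next to last of the 739. All 4 centres were CpG-poor. H19 and Rian had lenient calls in replicate 2 alone, at 0.670 and 0.158, and Airn a stricter call in replicate 2 alone, at 0.843.

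Nuclear and RNA-processing lncRNAs had a DHS that met the rule at 7 of 10 annotated genes. Tug1 and Rmrp had a shared DHS within 1 kb of a coding TSS, a kind of site that the 7.75% does not count. Malat1 had 2 DHSs: 3.34 in replicate 1 and 14.7 in replicate 2 at 989 bp upstream of its TSS, and 2.43 and 6.61 at 9 bp upstream. Neat1, the scaffold of paraspeckles, had 1.73 and 5.88 at a DHS closer to the TSS of Frmd8os, and Miat, a nuclear RNA abundant in neurons, 1.401 and 3.42. Dleu2, which carries Mir16-1, had 5 DHSs within 1 kb of its TSSs, with values of 0.967 to 1.60 in replicate 1 and 0.977 to 6.06 in replicate 2. One of the 5, with 1.47 and 3.35, held a MEF2 match. Pvt1, beside Myc, had 1.15 and 2.02, and 2900097C17Rik, the mouse counterpart of NORAD, which binds Pumilio proteins, 0.897 and 1.85. Over the 12 DHSs of this list the medians were 1.44 and 3.38, with 9 above the median of all lncRNA-promoter DHSs in replicate 1 and 7 in replicate 2.

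Of 18 annotated snoRNA hosts, 10 had a lncRNA-promoter DHS by the rule. Such hosts are spliced RNAs whose introns release snoRNAs, many of which guide modification of ribosomal RNA. Another 7 had a shared DHS within 1 kb of a coding TSS, a kind of site that the 7.75% does not count. Dancr had calls in both libraries that did not overlap. The 10 ran from 0.943 to 3.15 in replicate 1, with a median of 1.90, and from 2.69 to 11.9 in replicate 2, with a median of 4.33. All 10 were CpG-richer and held a footprint in both libraries, 9 lay above the lncRNA-promoter median in replicate 1 and 10 in replicate 2. The list leaves out other annotated snoRNA hosts with such a DHS. Of these, Snhg14, which was CpG-poor, Gm49685 and AI506816 lay below the lncRNA-promoter medians of both libraries. Above both medians lay 1110038B12Rik, 1810032O08Rik, 2410006H16Rik, 2700038G22Rik, 2900076A07Rik, 9430037G07Rik and AA465934. No value is given for 9330159M07Rik. Within the list, Snhg15 had 3.15 and 9.61, Snhg8 had 2.43 and 11.9, and Snhg5 had 2.12 and 6.77. Snhg7os, on the strand opposite Snhg7 by its name, had 2.88 and 8.87 and 1 of the 4 CTCF matches at CpG-richer centres. It is in the list by name only: no snoRNA is annotated inside it on its strand, and without it the medians of the other 9 were 1.68 and 4.15.

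Genes listed as microRNA hosts had a DHS at 9 of 13 annotated genes, with 19 DHSs in all. The annotation places a microRNA inside 6 of the 9 on the same strand, with 14 DHSs, and inside none of Mir124a-1hg, Gm27032 and 1700020I14Rik. Mir22hg had 2.47 and 12.9, 2 bp from its TSS, and 1.21 and 2.70 at a second DHS further upstream. The miR-9 family, known for its part in cortical neurogenesis, has its precursors in separate genes. Mir9-3hg had 3 DHSs, the strongest with 1.25 and 3.26, C130071C03Rik, which carries Mir9-2, had 1.67 and 3.95 at its stronger one, and Gm3764, which carries Mir9-1, had 0.953 and 2.95. Mir124a-1hg, named for the neuronal miR-124, had 0.985 and 2.15, while Mir124-2hg had a stricter call in replicate 2 alone, at 1.53. Mir17hg, of the proliferation-linked miR-17 cluster, had 1.32 and 3.01 at 538 bp upstream. Mir99ahg had 4 DHSs spread over 357 kb, from 0.677 to 1.27 in replicate 1 and from 0.536 to 2.92 in replicate 2.

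Read from the annotation rather than from a list, 25 of 61 eligible lncRNA genes with a microRNA inside on the same strand had a DHS (41.0%, 28.6 to 54.3), and 20 of 57 with a snoRNA (35.1%, 22.9 to 48.9), against 596 of 8128 with neither (7.33%, 6.78 to 7.92). Among genes with a CpG-richer TSS the shares were 16 of 19 (84.2%, 60.4 to 96.6) and 17 of 20 (85.0%, 62.1 to 96.8), against 55.5% (50.1 to 60.8) with neither. Among CpG-poor genes they were 9 of 42 (21.4%, 10.3 to 36.8) and 3 of 37 (8.11%, 1.70 to 21.9), against 5.18%. Hosts without one included genes of microRNAs known from other tissues, such as Mir142hg, of blood cells, and Gm28653 with Mir133b and Mir206, of muscle. They also included C78859 with Mir138-2 and Mir670hg with Mir129-2, which are known from brain. Mir670hg had a stricter call in replicate 2 alone, at 1.61. Hosts with a lncRNA-promoter DHS included AL805899.1 with Mir31, at 0.743 and 2.05, and 1700016P03Rik with the activity-induced Mir132 and Mir212, at 1.98 and 8.56. The centre of the 1700016P03Rik DHS lay 931 bp downstream of the TSS, and the strongest stricter call near its TSSs in replicate 2 had 4.07. Other hosts with such a DHS were Gm26871 with Mir137, at 0.831 and 1.86, and Lncppara with Mirlet7b and Mirlet7c-2, at 1.69 and 3.32.

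Of the lncRNAs known from neural development 6 of 25 annotated genes had a lncRNA-promoter DHS, and A330008L17Rik a shared one near a coding TSS. The 6 include Miat and the microRNA hosts 1700016P03Rik, C130071C03Rik and Gm26871. Pantr1, divergent from the cortical transcription factor gene Pou3f3, had 0.705 and 2.03 and, at its other DHS, 0.658 and 1.78; stronger calls near its TSSs, of 1.34 and 8.48, belonged to no DHS that met the rule. Zfhx2os, which lies opposite Zfhx2 by its name, had 1.63 and 4.40 at a centre with a CpG ratio of 0.334. Another 7 had calls of the stricter list in 1 library, among them Emx2os in replicate 2, at 2.00, and Rmst in replicate 2, at 0.654. A lenient call alone was found for 7, including Dlx1as and Dlx6os1, which are antisense to interneuron genes, at 0.930 and 0.347 in replicate 2. Of 20 annotated lncRNAs known from other tissues 2 had a DHS, Crnde with 2.97 and 8.44 and Hoxd3os1 with 1.63 and 2.84. No call of any list was found for 13 of the 20, among them Hotair, Hottip, Fendrr and Mhrt.

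**Figure D4:**
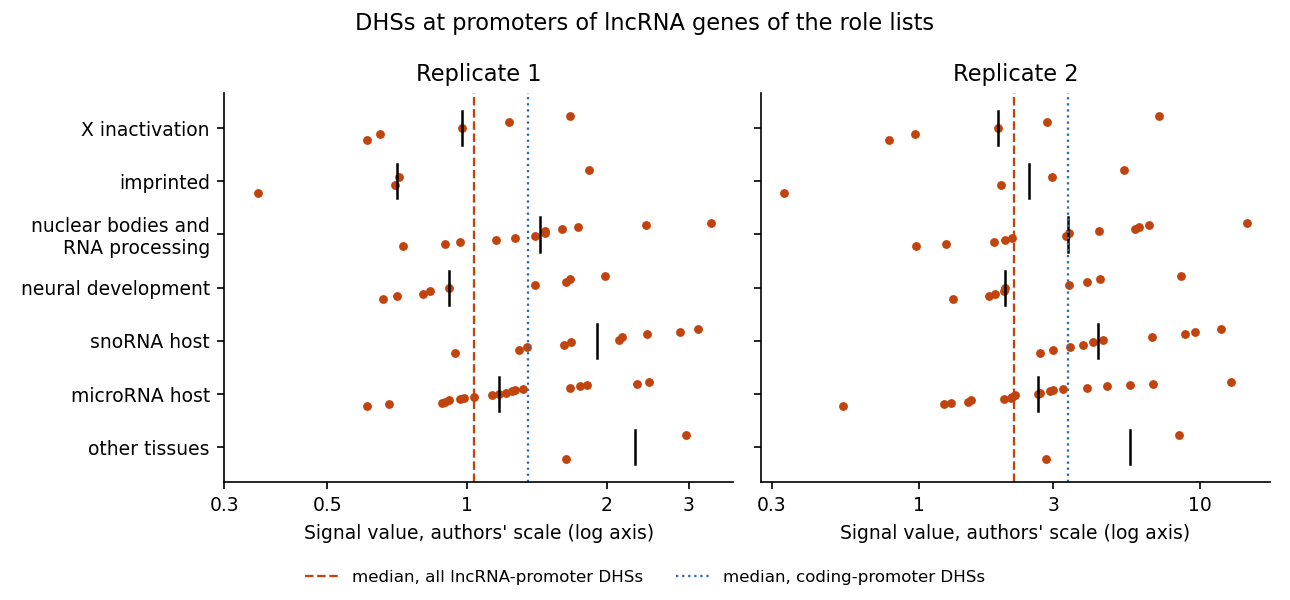
Signal values of lncRNA-promoter DHSs of the role lists in replicate 1 (left) and replicate 2 (right), on log axes; each point is a DHS, black bars are list medians, and the dashed and dotted lines are the medians of all lncRNA-promoter and all coding-promoter DHSs. All 10 DHSs of the snoRNA-host list lie above the lncRNA-promoter median in replicate 2, and 3 of the 4 imprinted ones lie below it in replicate 1. Snhg14, which also hosts snoRNAs, is plotted among the imprinted ones only.

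Matches to CTCF were at a level between those of the other classes. CTCF, the factor of chromatin loop anchors and insulators, was searched by its consensus in the central 150 bp of each DHS on both strands, as were the rest. Of the 17 consensus sequences CTCF can contain the NEUROD E-box and MEF2 the TATA box, and no other contains another; 480 lncRNA-promoter DHSs held none of them. A match is a description of the letters and not of binding. Matches to CTCF lay in 56 of 739 lncRNA-promoter DHSs (7.58%, 5.77 to 9.73), against 0.931% of coding-promoter DHSs, 18.3% of the others and 8.47% of all shared DHSs. Of the 56, 52 were among the 442 CpG-poor centres (11.8%) and 4 among the 297 CpG-richer ones (1.35%). Over the calls of replicate 1 alone, without replicate 2, 4.70% held a match. The share was 4.02% within 100 bp of the TSS and 14.4% beyond 500 bp. The strongest were Snhg7os, 2900072N19Rik with 3.003 and 6.78 and 4632415L05Rik with 2.34 and 6.95, all 3 CpG-richer.

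Over all centres, 3 sequences typical of CpG-island promoters were rarer than at coding promoters, with intervals that did not overlap; among CpG-richer centres alone the intervals of all 3 overlapped. The SP/KLF box (GGGGCGGGG) was found in 6.22% (4.59 to 8.22) of lncRNA-promoter DHSs, against 11.3% of coding-promoter DHSs, 1.96% of the others and 7.23% of all. The ETS site (CCGGAAGT) was found in 1.35% (0.651 to 2.47), against 4.00%, 0.464% and 2.43% in the same classes. NRF1 was found in 0.541% (0.148 to 1.38), against 1.89%, 0.446% and 1.24%. Among CpG-richer centres SP/KLF was found in 11.1% (7.77 to 15.2) at lncRNA promoters, against 12.3% at coding promoters, ETS in 2.69% (1.17 to 5.24), against 4.40%, and NRF1 in 1.01% (0.209 to 2.92), against 2.15%. Among CpG-poor centres SP/KLF and ETS were rarer with intervals that did not overlap, at 2.94% (1.58 to 4.98) against 7.53% (6.60 to 8.53) and 0.452% (0.0548 to 1.62) against 2.45% (1.93 to 3.07). Over all centres YY1 (AAGATGGCG) and ZBTB33 (CTCGCGAG) were also rarer than at coding promoters, with intervals that did not overlap. YY1 was found in 0.677% (0.220 to 1.57), against 1.79% (1.58 to 2.02) at coding promoters and 0.501% of the others. ZBTB33 was found in 0.135% (0.00343 to 0.752), against 0.987% (0.831 to 1.16) and 0.100%. For NFY, CRE and the USF/MYC E-box the coding-promoter share lay inside the interval of the lncRNA promoters. NFY was found in 4.47% (3.09 to 6.21) against 4.86% at coding promoters and 3.55% of all shared DHSs. CRE was found in 1.89% (1.04 to 3.16) against 1.83% and 1.26%, and the USF/MYC E-box (CACGTG) in 5.41% (3.89 to 7.30) against 5.38% and 4.59%.

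Over all centres NEUROD, AP-1, TATA and RFX sequences were more frequent than at coding promoters, with intervals that did not overlap, but within the CpG classes these intervals overlapped, except for NEUROD at CpG-poor centres. The NEUROD E-box, a site of proneural factors such as those of the NEUROD family, was found in 4.47% (3.09 to 6.21) of lncRNA-promoter DHSs, against 1.53% (1.33 to 1.74) of coding-promoter DHSs, 6.55% of the others and 3.73% of all. Leaving out matches that lie inside a CTCF match, it was found in 3.79% (2.53 to 5.43), against 1.48%, 5.10% and 3.07%. Among CpG-poor centres its share was 6.79% (4.63 to 9.55) at lncRNA promoters, against 2.72% (2.17 to 3.37) at coding promoters, and among CpG-richer centres 1.01% (0.209 to 2.92), against 1.21%. 1700028E10Rik, Gm32834 with 2.84 and 8.44 and 5930403N24Rik with 2.20 and 6.68 were the strongest of its 33. AP-1, the activity-regulated Fos and Jun site, was found in 3.65% (2.42 to 5.27), against 1.34%, 3.13% and 2.16%, and the TATA box in 2.84% (1.77 to 4.31), against 1.39%, 2.74% and 2.00%. RFX, of ciliary gene regulators, was found in 1.62% (0.842 to 2.82), against 0.518%, 0.947% and 0.730%. Among CpG-poor centres AP-1 was found in 4.30% (2.61 to 6.63) at lncRNA promoters, against 2.25% (1.75 to 2.85) at coding promoters, TATA in 2.71% (1.41 to 4.69), against 1.81% (1.37 to 2.36), and RFX in 2.26% (1.09 to 4.12), against 0.974% (0.654 to 1.396). REST and ZNF143 matched none of the 739, which allows a share of up to 0.498% by the exact interval; the shares of all shared DHSs, 0.0346% and 0.115%, lie within it. MEF2 matched 3 (0.406%, 0.0838 to 1.18), against 0.173% of all. No match in these windows says nothing about the factors.

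**Figure D5:**
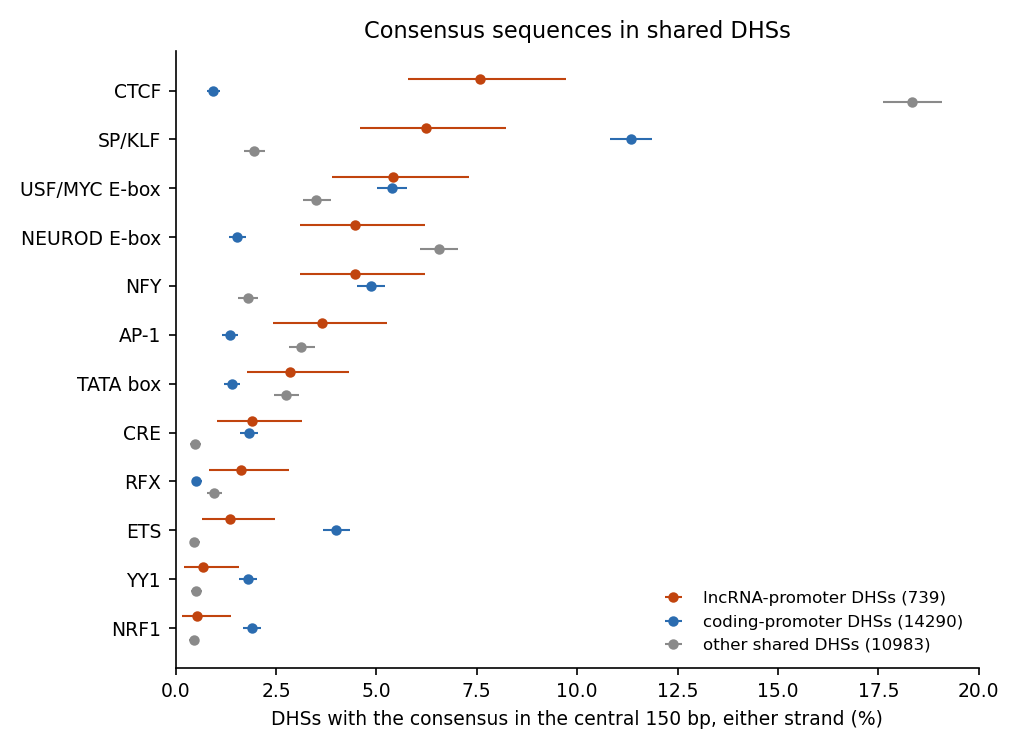
Percentage of lncRNA-promoter, coding-promoter and other shared DHSs whose central 150 bp hold each consensus sequence on either strand; points are shares and bars exact 95% binomial intervals. CTCF lies between the other classes at 7.58%, while SP/KLF and ETS are below their coding-promoter shares and above those of other shared DHSs.

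Position relative to coding genes varied widely. Of the 739 DHSs, 158 had a lncRNA start inside a coding gene on the opposite strand, with median signal values of 0.962 and 2.09, and 199 lay outside coding genes with a start divergent from the nearest coding TSS, with 1.06 and 2.28. A further 248 pointed the same way as the nearest coding TSS, with 1.07 and 2.28, and 117 converged with it, with 1.02 and 2.02. These medians varied little. DHSs of lncRNA TSSs over 100 kb from a coding TSS, 144 in number, had the lowest medians by distance, 0.869 and 1.64, and 72.2% were CpG-poor. Those 5 to 10 kb away had 1.31 and 2.92.

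At the limits of the rule, the farthest DHSs still counted were those of Gm26664 and Gm31763, 997 bp from a lncRNA TSS, with 2.27 and 6.50 and with 0.883 and 1.41. The nearest left out was that of Gm28616 at 1004 bp, with 1.91 and 6.41. On the coding side, 2410022M11Rik at 1005 bp from the Zmym5 TSS was kept, with 1.097 and 2.44, and Gm9929 at 1000 bp from that of Atf6 was left out, with 0.803 and 1.17.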

How the data were processed

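DNase-seq of 2 libraries of left cerebral cortex was used, analysed from the deposited call lists in mm10 coordinates (build per the labels), made from each library alone, per the notes deposited with the files. The caller is not given in the sources used here, nor is the aligner. The signal value of each call is the authors' height, with a scaling not stated. The deposited cut-rate files list stretches of bases with their q-values (false discovery rates), all under 0.05. The authors' footprints, made from the alignments and cut-rate calls per the same notes, carry the constant 0.01, not used as a value. Read totals were not used here, and the depth behind the calls is unknown.

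Calls were joined where they overlapped by 1 bp. TSSs came from GENCODE M21 basic transcripts, sequence from GRCm38.p6, and small RNA genes from RefSeq. CpG ratios used 500 bp on each side. Work was done in Python 3.11.15 with pandas 2.3.3, numpy 2.4.6, scipy 1.17.1 and pysam 0.24.0, and tested on simulated data. Members, role lists and 17 consensus sequences were chosen with earlier results of these data known. Named genes were role-list genes, the highest and lowest mean ranks of signal, the widest, those with most footprints, the strongest with a match, and those nearest the limits; a selection is printed, and host genes of microRNAs outside the lists and ratio extremes were added after their values were seen. Alternatives were other call lists, overlaps, windows, gene types, cut-offs and each library alone; 3 were added after seeing the data.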

Additional observations from a re-analysis of the deposited data

How the results depend on the processing

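Of 118 values recomputed under alternatives, 69 stayed within the interval of the value reported (counts within 1.5 times) and 49 did not; the cause was not tested. The lenient call lists gave 1278 DHSs, at 12.4% of lncRNA genes, with a median signal of 0.757 in replicate 1, 1.38 in replicate 2, 70.0% CpG-poor, 80.8% with a footprint in both libraries, 5.32% with a CTCF match and a median distance of 239.5 bp. The stronger 50% of calls gave 5.91% of genes, medians of 1.26 and 2.95, 54.7% CpG-poor and 95.2% with footprints. The strongest 20000 calls gave 430 DHSs, 4.74% of genes, medians of 1.38 and 3.36, 51.9% and 97.2%. A lncRNA window of 0.5 kb gave 6.36% of genes, 55.9% CpG-poor, 5.38% with CTCF and 119 bp; one of 2.5 kb gave 1117 DHSs, 10.4% of genes, a median width of 280 bp, 64.1% CpG-poor and 501 bp. LincRNA genes alone gave 437 DHSs, 6.88% of genes and 63.8% CpG-poor. A CpG limit of 0.75 gave 79.6%, and footprints of the libraries that overlapped each other were found in 78.9%. With each library alone, that is without the other, the counts were 1233 to 1270, the gene shares 9.72% to 11.8%, the median signal 0.775 in replicate 1 and 1.49 in replicate 2, the widths 207 to 220 bp, the CpG-poor shares 67.0% to 69.7%, the footprint shares 57.0% to 67.1%, the CTCF shares 4.70% to 5.51% and the distances 230 to 296 bp. An overlap of at least 50% of the shorter call, a distance over 2.5 kb from coding TSSs and the 3 alternatives chosen after seeing the data (comprehensive transcripts, abutting calls joined, replicate 1 calls under 0.3 left out) moved none of the 9 values each. No paired analysis was possible because both libraries belong to 1 group.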

Other observations

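Several coding genes had the nearest coding TSS of 4 or more lncRNA-promoter DHSs. These were Kcnrg with 5, through Dleu2, and Asap2, Chd2, Mef2c, Mid1, Nr2f1, Pcmtd1, Polg, Ubash3b and Zmiz1 with 4 each. The nearest can be far: the C130071C03Rik DHSs counted for Mef2c belong to starts 145704 and 152429 bp from its TSS. Mef2c and Nr2f1 encode transcription factors of cortical neurons and of cortical area patterning. Whether the genes of this list share a role was not tested. Pairs of neighbouring lncRNA-promoter DHSs less than 1 kb apart numbered 99. LncRNA genes named by a symbol other than a Gm number, a Rik clone or a clone accession had a DHS in 15.7% of 428 cases (12.3 to 19.4), against 6.22% of 5819 Gm genes and 11.4% of 1488 Rik genes. By chromosome the share of eligible lncRNA genes with a DHS ran from 4.23% on chromosome 10 to 13.4% on chromosome 17, with 11.0% (6.395 to 17.2) on chromosome X.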
